A study of Mus musculus with 12 samples.

Results

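The interleukin-6 (IL-6) family was examined through 7 genes: the ligands Il6, Lif and Il11, the signal-transducing receptor subunit Il6st, the ligand receptors Lifr and Osmr, and the feedback inhibitor Socs3. They were chosen by gene name, as the probe sets annotated to a single symbol, which gave 17 probe sets for 7 of the 18193 genes named on the array. Of these, 15 probe sets of 6 genes lay above the array's median in at least 2 arrays and were tested; the only Il11 probe set and one of the 2 Lif probe sets did not. Each gene was represented by its kept probe set with the highest mean.

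The 12 samples were mouse bone osteoprogenitors, sorted by flow cytometry into the populations SSC, CSP and Thy and each read on its own expression microarray, which the design text writes as SSC, BCSP and Thy+. The mice carried an inducible JUN, and JUN was switched on in young animals by doxycycline supplied through the mother's drinking water, with sorting after 2 days. Each population had 2 arrays with JUN, from mice 4 and 7, and 2 arrays labelled -JUN, read here as the arm without induction, from mice 3 and 10 for SSC and mice 3 and 3b for CSP and Thy. The labels name JUN-inducible mice for both arms; whether the arm without JUN carried the transgene without doxycycline, the promoter that drives the transgene, and the animals' exact age were not stated in the labels. The 12 arrays therefore carried 5 mouse numbers, and 2 numbers stood for JUN in every population. A mouse is identified here only by the number in the title; whether the dated SSC arrays numbered 3 and 7 came from the same animals as the CSP and Thy arrays with those numbers was not stated.

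IL-6 family cytokines act through receptor complexes that share the subunit gp130, the product of Il6st. IL-6 first binds its own receptor chain, IL-6 receptor alpha, and paired gp130 chains then relay the signal, whereas leukaemia inhibitory factor (LIF) binds the LIF receptor and oncostatin M the oncostatin M receptor, each paired with gp130. The relay runs through JAK kinases to STAT3, which switches on Socs3, whose product in turn blocks the receptor complex. In bone these cytokines are known for influencing osteoblast differentiation and, through stromal signals, osteoclast formation. AP-1, the dimeric transcription factor of which JUN is a part, is a known regulator of Il6.

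The start regions of the members were read for the sequences these factors recognise, because the study switched on JUN. RefSeq start regions (GRCm38.p6) that run from 250 bases before to 50 bases after the start were found for all 7 genes, with 9 start sites in all. The AP-1 motif TGANTCA, which includes its own reverse complement, lay upstream of the start in each of the 3 ligand genes. Il6 (chr5, forward strand, gene at 30013114 to 30019975) held it at -249, Lif (chr11, forward strand, 4257568 to 4272514) at -228, and Il11 (chr7, reverse strand, 4772373 to 4782907) at -98 of the start at 4778141, not at its other start. Over all 32851 start regions, 7.81% held this motif, and 6.75% held it in the 250 upstream bases. The STAT motif TTCNNNGAA, likewise its own reverse complement, was found once, at -154 of Socs3 (chr11, reverse strand, 117966079 to 117970336), against 8.3% of all start regions. The cyclic AMP response motif TGACGTCA, in 1.79% of all start regions, was found in none of the 9. Osmr (chr15) held an AP-1 match 4 bases into the transcript, and none of the 3 motifs was found at Il6st (chr13) or at either start of Lifr (chr15). The 60 bases around each upstream match are shown 5′ to 3′ on the gene's strand with the match in capitals.
Il6 (chr5:30012864-30012923): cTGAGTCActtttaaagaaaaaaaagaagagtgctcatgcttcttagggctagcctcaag
Lif (chr11:4257318-4257377): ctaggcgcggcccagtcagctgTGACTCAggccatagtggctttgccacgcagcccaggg
Il11 (chr7:4778206-4778265): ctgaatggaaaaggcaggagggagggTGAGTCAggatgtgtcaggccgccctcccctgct
Socs3 (chr11:117969486-117969545): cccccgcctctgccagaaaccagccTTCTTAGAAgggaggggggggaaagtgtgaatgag
A match describes these letters only; no binding was measured in these samples.

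Thy1 matched the Thy label, and 1 SSC array stood apart. Thy1 lay at 12.80 to 13.30 in the Thy arrays against 7.28 to 9.63 elsewhere. Eng, which encodes the surface protein endoglin, lay at 7.95 to 8.24 in SSC against 9.07 to 10.40 in the other populations. The leukocyte gene Ptprc stayed between 5.45 and 6.54, below the array medians. Jun itself ranged from 12.06 to 13.65, and its arms overlapped in SSC and Thy. In CSP it was lower with JUN, at 12.92 and 12.82 against 13.37 and 13.24 without JUN. Arms were separate there for 31.2% of all genes. The labels do not say whether the Jun probe set reads the transgene. Array SSC JUN replicate 1 had chondrocyte marker genes at a mean of 13.25 over all 9 listed genes, as did CSP without JUN replicate 2 (13.20) and CSP JUN replicate 1 (13.31), while the other 9 arrays lay between 8.44 and 10.89. The titles of the other 3 SSC arrays carry a date, which SSC JUN replicate 1 and the 8 CSP and Thy arrays lack, and the labels do not say what the date marks. The mean of the 27 poly-A control probe sets, which read RNA added during processing, was 8.08, 8.65 and 9.39 in the 3 dated SSC arrays, 10.54 in SSC JUN replicate 1 and 9.38 to 11.52 in CSP and Thy. Values without SSC JUN replicate 1 are given where a result named here differs by over 1.5 times or changes its call. Leaving this array out gave 304 genes that passed for SSC minus Thy, in place of 49. All SSC arrays in that fit carry a date, so population and date cannot be told apart in it.

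Values are the authors' log2 expression values, so a difference of 1 is a doubling; levels of different probe sets cannot be compared with each other. By its representative probe set each tested member lay above the median of every array, except Lif, which did so in 6 of 12 arrays. In bulk samples such as these, fewer cells of a type and less RNA per cell cannot be told apart. The values of each member by array are shown in the plot of the 7 genes by population and JUN arm.

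**Figure D1:**
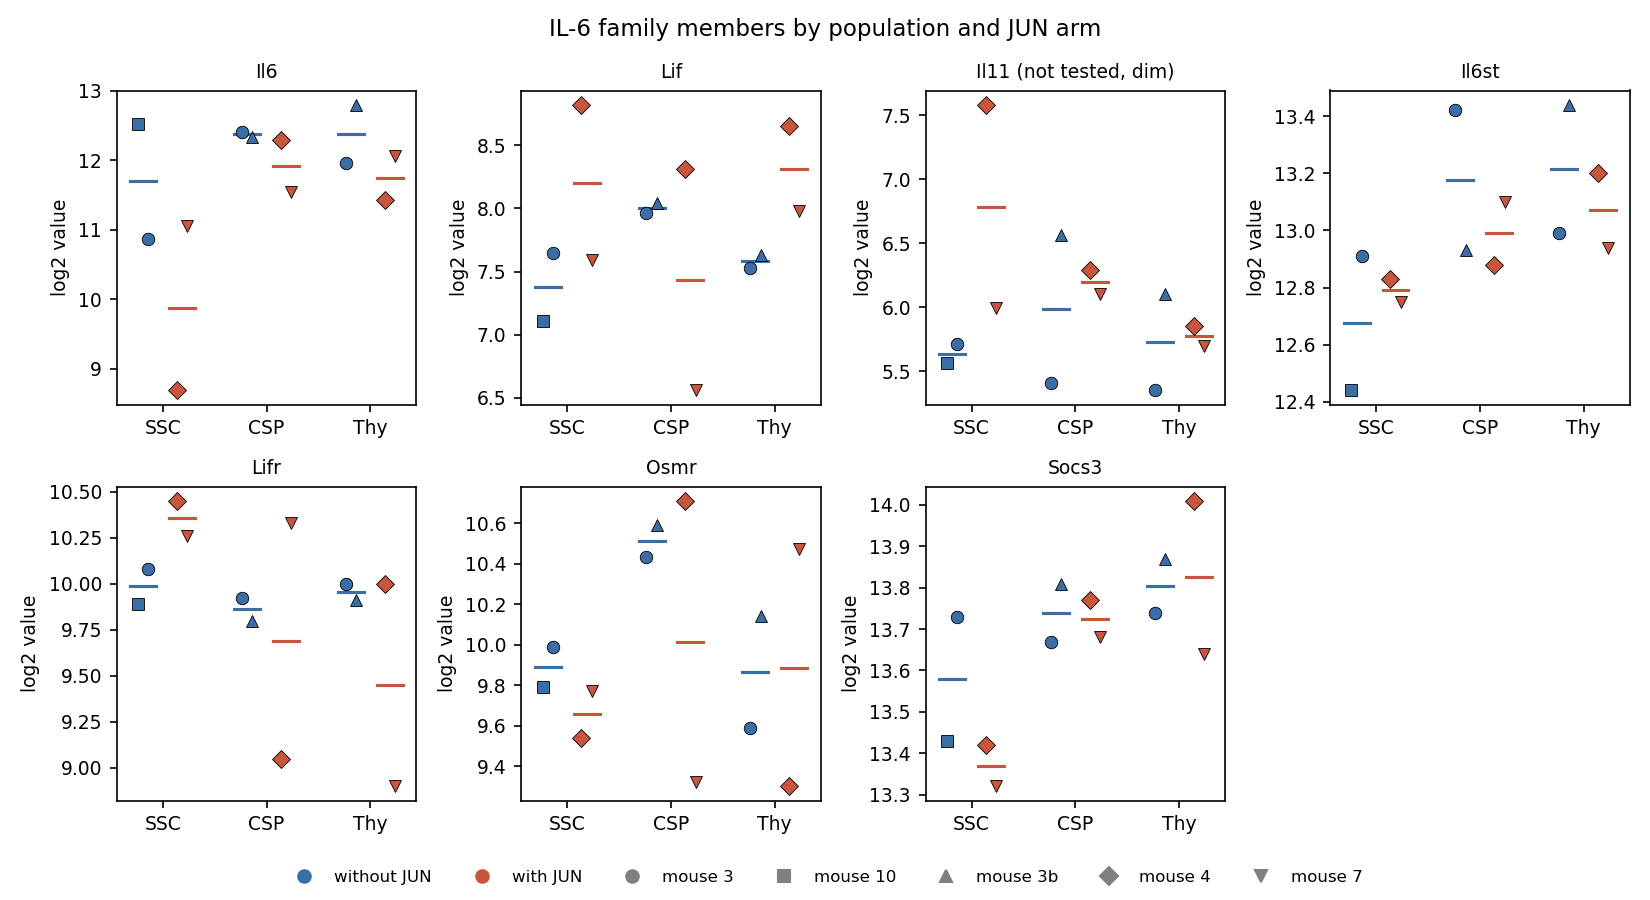
Authors' log2 value of each member's representative probe set (y axis, scaled separately for each gene) in SSC, CSP and Thy; each point is 1 array, its shape the mouse, its colour the JUN arm, and each line the mean of 2 arrays. Il6 in SSC ranges from 8.69 to 12.53, while all CSP and Thy arrays lie between 11.43 and 12.80.

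Il6, the family's founding cytokine, varied most among the members. In SSC it stood at 10.87 and 12.53 without JUN and at 8.69 and 11.05 with JUN. In CSP it stood at 12.41 and 12.34 without JUN and at 12.30 and 11.54 with JUN. In Thy it stood at 11.96 and 12.80 without JUN and at 11.43 and 12.07 with JUN. The lowest array was SSC JUN replicate 1, and the arms overlapped in SSC and Thy but not in CSP. Its 12 values spanned 4.11, and their standard deviation of 1.11 was at the 96.7th percentile of the 26560 kept probe sets. By population, Il6 averaged 10.78 ± 1.58 in SSC, 12.15 ± 0.40 in CSP and 12.06 ± 0.57 in Thy (SD, n = 4).

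With JUN, Il6 was lower in all 3 populations by its mean and passed the test in none. The differences were -1.82 ± 0.74 in SSC (SE; 3.53-fold lower; 95% confidence interval -3.47 to -0.18; limma unadjusted p = 0.0325, adjusted p = 0.69), -0.45 ± 0.74 in CSP (adjusted p = 0.995) and -0.63 ± 0.74 in Thy (adjusted p = 0.985). Averaged over the populations the difference was -0.97 ± 0.43 (95% confidence interval -1.92 to -0.02; limma unadjusted p = 0.0458, adjusted p = 0.396). Without SSC JUN replicate 1 the SSC difference was -0.65 and the average -0.58, and without SSC JUN replicate 2 the SSC difference was -3. The same -0.65 was obtained with the date in the title as a covariate, since the remaining 3 SSC arrays all carry one. Leaving out any array or mouse, the Il6 difference ranged from -0.83 to -0.07 in CSP, the latter without CSP JUN replicate 2, and from -1.06 to -0.21 in Thy, reached by leaving out replicate 1 and replicate 2 of the Thy arm without JUN. With the poly-A controls as a covariate it was 0.5 in CSP, the opposite sign. Part of the average rests on arrays with the same mouse number, which the test counts as separate.

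Between populations, Il6 in SSC minus CSP was -1.36 ± 0.52 (2.57-fold lower; limma unadjusted p = 0.0233, adjusted p = 0.663) and SSC minus Thy was -1.28 ± 0.52 (2.43-fold lower; limma unadjusted p = 0.0312, adjusted p = 0.239), and neither difference passed. CSP and Thy, neighbours at the top of the order, differed by 0.08 ± 0.52. Among arrays that share a mouse number, the SSC array was the lowest for each of the 3 numbers present in all populations. Il6 in SSC minus CSP was -1.54 in mouse 3, -3.61 in mouse 4 and -0.49 in mouse 7, and SSC minus Thy was -1.09, -2.73 and -1.01. The SSC array of mouse 10, which gave no other array, had at 12.53 the second highest Il6 value of all 12. Without SSC JUN replicate 1 the Il6 difference was -0.76 from CSP and -0.68 from Thy; with the title date as a covariate, which leaves SSC JUN replicate 1 as the only undated SSC array, the difference from Thy was -3.09 (adjusted p = 0.115), and the difference from CSP was -3.17 (adjusted p = 0.0637). The 3 dated arrays are all SSC, so for them date and population cannot be told apart.

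**Figure D2:**
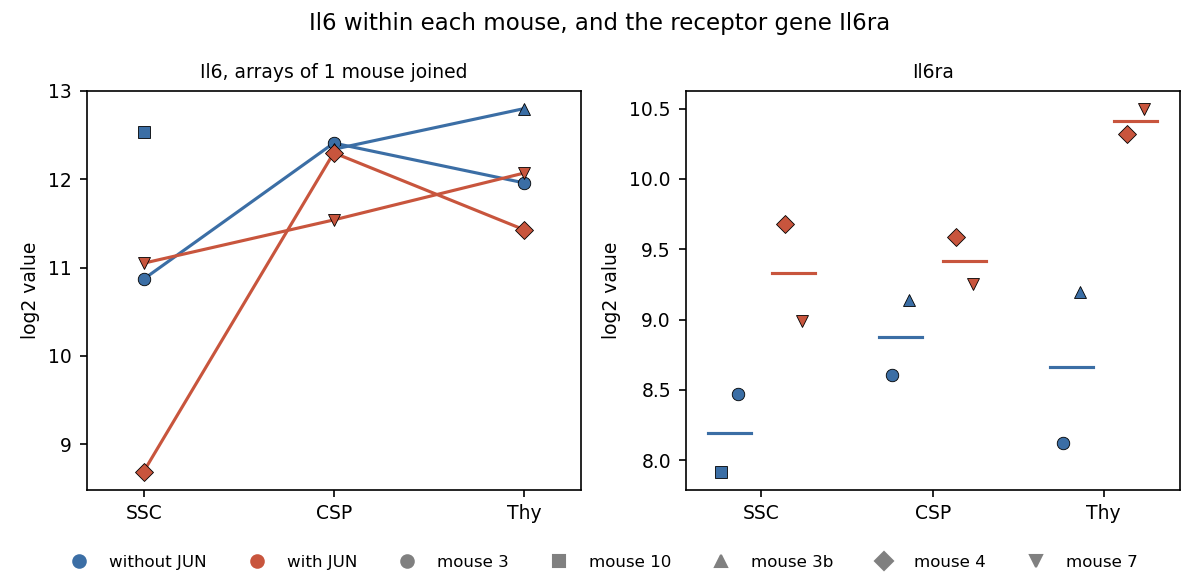
Left, authors' log2 value of Il6 (y axis) in SSC, CSP and Thy with the arrays of each mouse joined; right, log2 value of the receptor gene Il6ra by population and arm, with lines at group means of 2 arrays. Il6 is lowest in the SSC array of mice 3, 4 and 7, and the highest Il6ra values are the 2 Thy arrays with JUN, at 10.32 and 10.50.

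Lif, which keeps stem cells undifferentiated in culture and acts through Lifr and gp130, was dim, and its 3 highest values came from the 3 arrays of mouse 4. In SSC it stood at 7.65 and 7.11 without JUN and at 8.82 and 7.59 with JUN. In CSP it stood at 7.96 and 8.04 without JUN and at 8.31 and 6.56 with JUN, and in Thy at 7.53 and 7.63 without JUN and at 8.65 and 7.98 with JUN. Mouse 4 thus gave the highest value in each population, and the arms were separate in Thy but overlapped in SSC and CSP. Differences with JUN were 0.82 ± 0.57 in SSC, -0.56 ± 0.57 in CSP, 0.74 ± 0.57 in Thy and 0.33 ± 0.33 on average, with limma adjusted p between 0.616 and 0.995. The average was -0.28 without mouse 4 and 0.94 without mouse 7 (adjusted p = 0.0501). With only SSC JUN replicate 1 left out, the Lif difference was 0.21 in SSC and 0.13 on average, and SSC minus CSP was -0.25 and SSC minus Thy -0.48. With all arrays the population differences were within 0.23 of 0, with standard errors of 0.43.

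The other Lif probe set, below the median in all but 1 array, ranged from 5.80 to 8.11 and had its highest value in Thy JUN replicate 1, also from mouse 4; the 2 Lif probe sets correlated at r = 0.48 over 12 arrays that share mice. Tested without the filter among 45037 probe sets it differed with JUN by 0.00 ± 0.57 in SSC, 0.46 ± 0.57 in CSP and 0.93 ± 0.57 in Thy, none of which passed (limma adjusted p 0.987 to 0.999).

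Il11, a ligand that acts through its own receptor and gp130, was dim in every array and highest in SSC JUN replicate 1. It stood at 5.71 and 5.56 in SSC without JUN, and at 7.58 and 5.99 in SSC with JUN. In CSP it stood at 5.41 and 6.56 without JUN and at 6.29 and 6.10 with JUN, and in Thy at 5.35 and 6.10 without JUN and at 5.85 and 5.70 with JUN. All 12 values lay below the medians of their arrays, the highest, 7.58, against a median of 7.71. Tested without the filter, the SSC difference was 1.15 ± 0.53 (limma unadjusted p = 0.0567, adjusted p = 0.834), and in CSP and Thy it was 0.21 ± 0.53 and 0.05 ± 0.53. Il11 in SSC differed by 0.36 ± 0.50 without SSC JUN replicate 1 (limma adjusted p = 1). That array thus held the lowest Il6 and the highest Lif and Il11 values of the 12.

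Il6st, which encodes gp130, was bright and nearly level across groups on all 4 of its probe sets. Its representative probe set ranged from 12.44 in SSC without JUN replicate 3 to 13.44 in Thy without JUN replicate 2, and the other probe sets spanned between 0.81 and 1.17. Differences with JUN were 0.11 (SSC), -0.18 (CSP) and -0.14 (Thy), each with a standard error of 0.32. The average of -0.07 ± 0.18 had a 95% confidence interval of -0.48 to 0.33. SSC lay lower than Thy by 0.41 ± 0.20, with all 4 SSC arrays (12.44 to 12.91) below all 4 Thy arrays (12.94 to 13.44), and lower than CSP by 0.35 ± 0.20. Neither passed (limma adjusted p = 0.311 and 0.871), and the other Il6st probe sets showed no p under 0.05 in any comparison.

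Lifr, the LIF receptor, differed with JUN by -0.10, -0.59 and -0.88 on average on its 3 probe sets, which shared a sign there but not in SSC. The representative probe set 1450207_at ranged from 8.90 to 10.45, and its differences with JUN were 0.37 (SSC), -0.16 (CSP) and -0.50 (Thy), each with a standard error of 0.45. Probe set 1454984_at stood at 10.67 and 11.48 in SSC without JUN and at 8.85 and 10.28 in SSC with JUN. In CSP it stood at 11.25 and 10.04 without JUN and at 10.20 and 9.83 with JUN, and in Thy at 9.07 and 9.40 without JUN and at 8.06 and 9.39 with JUN. All 4 CSP arrays thus lay above all 4 Thy arrays, and 3 of 4 SSC arrays did so.

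On probe set 1454984_at, Lifr in Thy (8.98 ± 0.63) was lower than in SSC (10.32 ± 1.10) and CSP (10.33 ± 0.63; SD, n = 4). SSC minus Thy was 1.34 ± 0.42 (limma unadjusted p = 0.00828, adjusted p = 0.144 over 26560 probe sets) and CSP minus Thy 1.35 ± 0.42 (unadjusted p = 0.00807, adjusted p = 0.25). Within mice, SSC minus Thy was 1.60 in mouse 3, 0.79 in mouse 4 and 0.89 in mouse 7. CSP minus Thy was 2.17, 2.14 and 0.43 in the same mice and 0.64 in mouse 3b, so the direction was shared by every mouse number measured. Without SSC JUN replicate 1, SSC minus Thy was 1.73 and passed (limma adjusted p = 0.0388). At gene level 304 genes passed in that fit, in place of 49. With the title date as a covariate SSC minus Thy on this probe set was 0.18 (limma adjusted p = 0.964). With the poly-A controls as a covariate it was -0.29. The representative probe set differed between CSP and Thy by 0.07 ± 0.31, and probe set 1425107_a_at by 0.11, against the 1.35 above; over the 12 arrays the 3 correlated at r between -0.07 and 0.40.

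With JUN, the other Lifr probe sets were lower in SSC than the representative one. Lifr probe set 1454984_at differed by -1.51 ± 0.61 (limma unadjusted p = 0.0329) and probe set 1425107_a_at by -1.04 ± 0.40 (unadjusted p = 0.0251), both with adjusted p = 0.754 and with arms that did not overlap. The latter stood at 10.40 and 10.15 without JUN and at 9.76 and 8.71 with JUN. Without SSC JUN replicate 1 they were -0.80 and -1.56 (limma adjusted p = 1 for both). Averaged over populations these differences were -0.88 ± 0.35 and -0.59 ± 0.23 (limma adjusted p = 0.431 for both). The mean of the 3 probe sets gave a Lifr difference in SSC of -0.73, opposite in sign to the representative 0.37, and the poly-A covariate turned the sign of the representative probe set (-0.34) and of 1454984_at (0.14).

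Osmr, the oncostatin M receptor, was lower on average in SSC than in CSP and Thy on each of its 3 probe sets, and none of these differences passed. They were -0.49, -0.56 and -0.13 against CSP and -0.10, -0.47 and -0.24 against Thy. On 1459217_at, SSC JUN replicate 1 held the lowest value of the 12 arrays, 6.07. The other SSC arrays lay at 7.16 to 7.83, and the means were 7.3 in CSP and 7.41 in Thy. SSC minus CSP there was -0.27 in mouse 3, -1.8 in mouse 4 and 1.06 in mouse 7. SSC minus Thy was -2.07, -0.79 and 1.3 in the same mice. On the representative probe set SSC minus Thy was 0.4, 0.24 and -0.7 in these mice. The representative probe set 1418674_at ranged from 9.30 to 10.71. Osmr stood at 9.99 and 9.79 in SSC without JUN, at 9.54 and 9.77 in SSC with JUN, at 10.43 and 10.59 in CSP without JUN and at 10.71 and 9.32 in CSP with JUN. In Thy it stood at 9.59 and 10.14 without JUN and at 9.30 and 10.47 with JUN, so JUN replicates of one group lay further apart than any group means. Differences with JUN were -0.24, -0.50 and 0.02 with SE 0.49. On probe set 1418675_at SSC averaged 9.03, CSP 9.60 and Thy 9.50, with SSC minus CSP at -0.56 ± 0.20 (limma unadjusted p = 0.0159, adjusted p = 0.508) and SSC minus Thy at -0.47 ± 0.20 (adjusted p = 0.246); neither passed. With JUN the signs differed between probe sets. The largest such difference was on 1459217_at in Thy, where the values were 9.23 and 7.02 without JUN and 6.86 and 6.53 with JUN. This probe set was dim, above the array median in 3 of 12 arrays. Its 9.23, in Thy without JUN replicate 1, was the highest of the 12 values. In Thy the arms did not overlap, as for 28% of all kept probe sets. The difference of -1.43 ± 0.74 did not pass (limma unadjusted p = 0.0808, adjusted p = 0.987). On the same probe set the difference was -0.43 in SSC and 0.04 in CSP. The SSC values were 7.16 and 7.61 without JUN and 6.07 and 7.83 with JUN. The lower SSC mean with JUN thus rested on SSC JUN replicate 1, and SSC JUN replicate 2 lay above both arrays without JUN. The representative Osmr probe set differed with JUN by -0.12 in SSC without SSC JUN replicate 1. The 3 Osmr probe sets correlated at r between -0.20 and 0.05 over the 12 arrays.

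Socs3, the feedback inhibitor that STAT3 induces, had a lower mean in SSC than in Thy on all 3 probe sets, by an amount that differed between them. The representative 1455899_x_at ranged only from 13.32 to 14.01, and 1456212_x_at from 12.35 to 13.43; the suffix marks probe sets in which some probes may also match other transcripts. Probe set 1416576_at stood at 11.25 and 10.79 in SSC without JUN, at 12.89 and 11.63 in SSC with JUN, at 12.57 and 12.79 in CSP without JUN and at 12.48 and 12.66 in CSP with JUN. In Thy it stood at 12.66 and 13.32 without JUN and at 13.63 and 12.70 with JUN. SSC was low in 3 of its 4 arrays, and SSC JUN replicate 1 lay among the CSP and Thy arrays.

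On probe set 1416576_at, Socs3 averaged 11.64 ± 0.90 in SSC, 12.63 ± 0.13 in CSP and 13.08 ± 0.48 in Thy (SD, n = 4). SSC minus Thy was -1.44 ± 0.37 (limma unadjusted p = 0.00202, adjusted p = 0.09), SSC minus CSP -0.99 ± 0.37 (adjusted p = 0.545), and on 1456212_x_at SSC minus Thy was -0.50 ± 0.20 (adjusted p = 0.231). The representative probe set gave -0.34 ± 0.17 against Thy (adjusted p = 0.315) and -0.26 ± 0.17 against CSP. Within mice, SSC minus Thy on 1416576_at was -1.42 in mouse 3, -0.74 in mouse 4 and -1.07 in mouse 7, while SSC minus CSP was -1.33, 0.41 and -1.03. Without SSC JUN replicate 1 the Socs3 difference from Thy was -1.83 and passed (limma adjusted p = 0.0174). It also passed without mouse 4, from which that array came (-1.67, limma adjusted p = 0.0387). At gene level 304 and 85 genes passed in these 2 fits, in place of 49. With the title date as a covariate the Socs3 difference was -0.28 (limma adjusted p = 0.915). That value rests on SSC JUN replicate 1 as the only undated SSC array.

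With JUN, Socs3 probe set 1416576_at was higher in SSC by 1.24 ± 0.47 (limma unadjusted p = 0.0253, adjusted p = 0.754), and 0.62 without SSC JUN replicate 1. The representative Socs3 probe set differed by -0.21 ± 0.28 in SSC, -0.01 ± 0.28 in CSP and 0.02 ± 0.28 in Thy. The 3 Socs3 probe sets correlated at r between 0.63 and 0.94 over the 12 arrays.

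**Figure D3:**
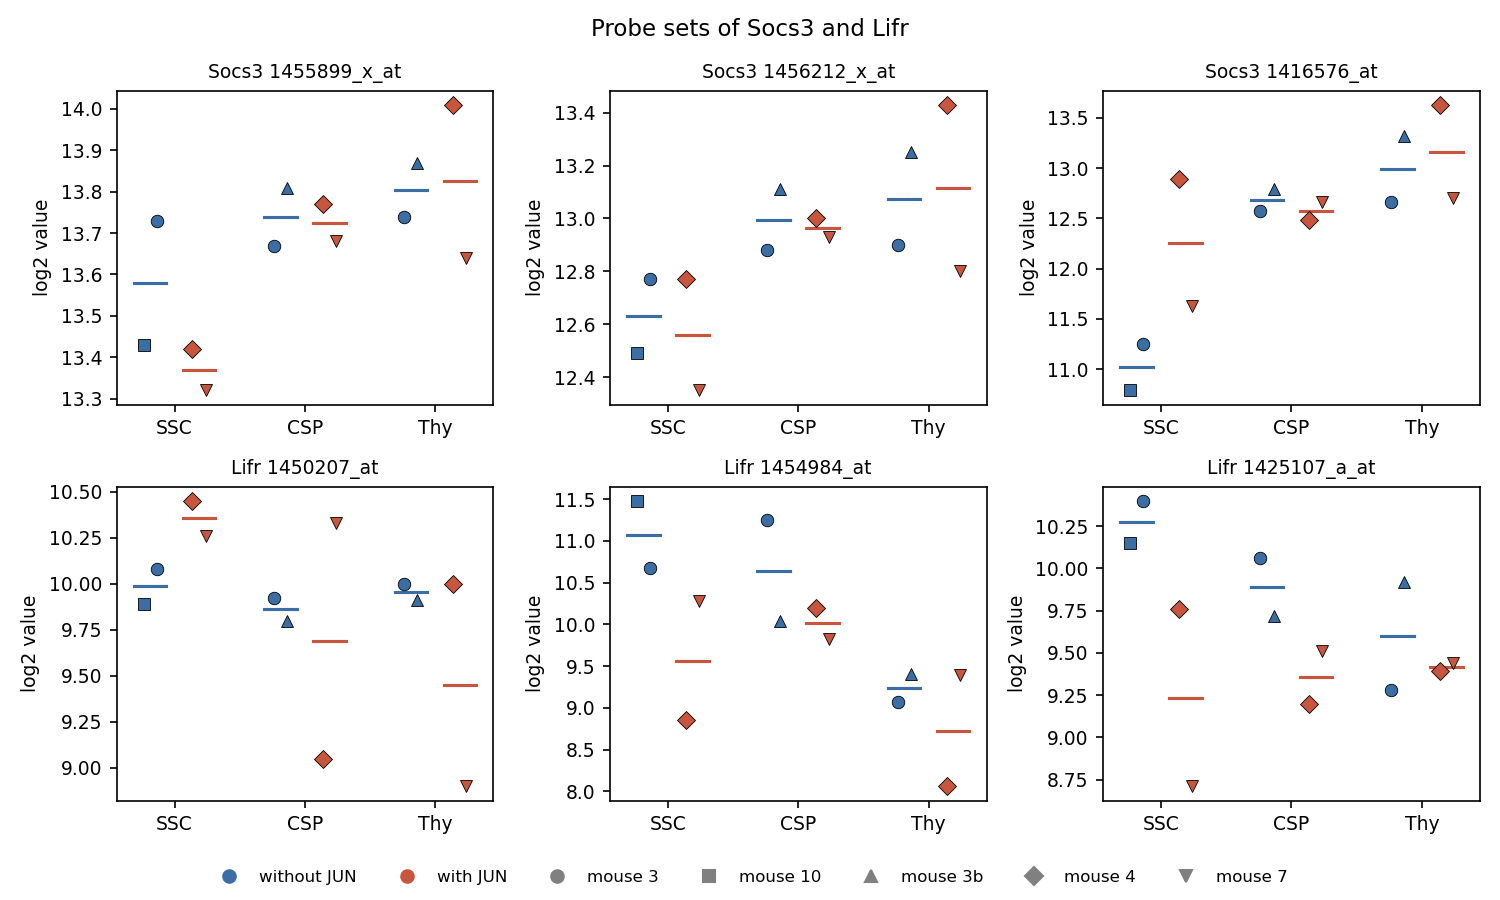
Authors' log2 values (y axis, scaled separately) of the 3 Socs3 and 3 Lifr probe sets by population and arm; points are arrays, shapes mice, lines group means of 2 arrays. Socs3 1416576_at is low in 3 of 4 SSC arrays (10.79 to 11.63), and Lifr 1454984_at is lower in all Thy arrays (8.06 to 9.40) than in all CSP arrays (9.83 to 11.25).

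The JUN comparison asked whether induction changed the family in each population, and no tested member passed in any of them. In SSC, 0 of 6 members passed at a limma adjusted p under 0.05, as for all 12516 genes (0%), and 1 of 6 had an unadjusted p under 0.05, against 6.5% of all genes. Arms did not overlap for 3 of 6 members, Lifr, Osmr and Socs3, against 38.4% of all genes. In CSP all 6 members had lower means with JUN by their representative probe sets, with a median of -0.32 against 0.07 over all genes. Socs3 was at -0.01. Without CSP JUN replicate 2, Lif was 0.32, Osmr 0.2, Il6 -0.07 and Lifr -0.81. Of the 15 tested probe sets, Osmr 1418675_at (0.2) and 1459217_at (0.04) were higher with JUN and the others lower. In CSP 0 members passed (0% of all genes) and 0 had an unadjusted p under 0.05 (2.3%). Arms did not overlap for 1, Il6 (31.2%). In Thy, 3 were higher and 3 lower, 0 passed (0%), 0 had an unadjusted p under 0.05 (3.04%) and 1, Lif, had separate arms (28.6%).

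Averaged over populations, 0 of 6 members passed (0% of all genes), 1, Il6, had an unadjusted p under 0.05 (12.5%), and 0 had separate arms (0.376%). Among the 15 member probe sets tested singly, an unadjusted p under 0.05 was found for 4 (SSC), 0 (CSP), 0 (Thy) and 3 (average), against 5.65%, 2.88%, 3.28% and 11.5% of 26560 probe sets, and limma called none. Arms did not overlap for 7, 3, 3 and 0 of the 15, against 37.9%, 32.3%, 28% and 0.395%. The moderated F test of whether the JUN difference depended on the population gave an adjusted p of 1 for each of the 6 members, with 0% of all genes called, 1.15% at an unadjusted p under 0.05, and unadjusted p from 0.202 for Lif to 0.819 for Socs3. With 2 arrays an arm, the 95% confidence interval in SSC ran from -0.82 to 0.40 for the representative Socs3 probe set and from -0.44 to 2.08 for Lif.

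**Figure D4:**
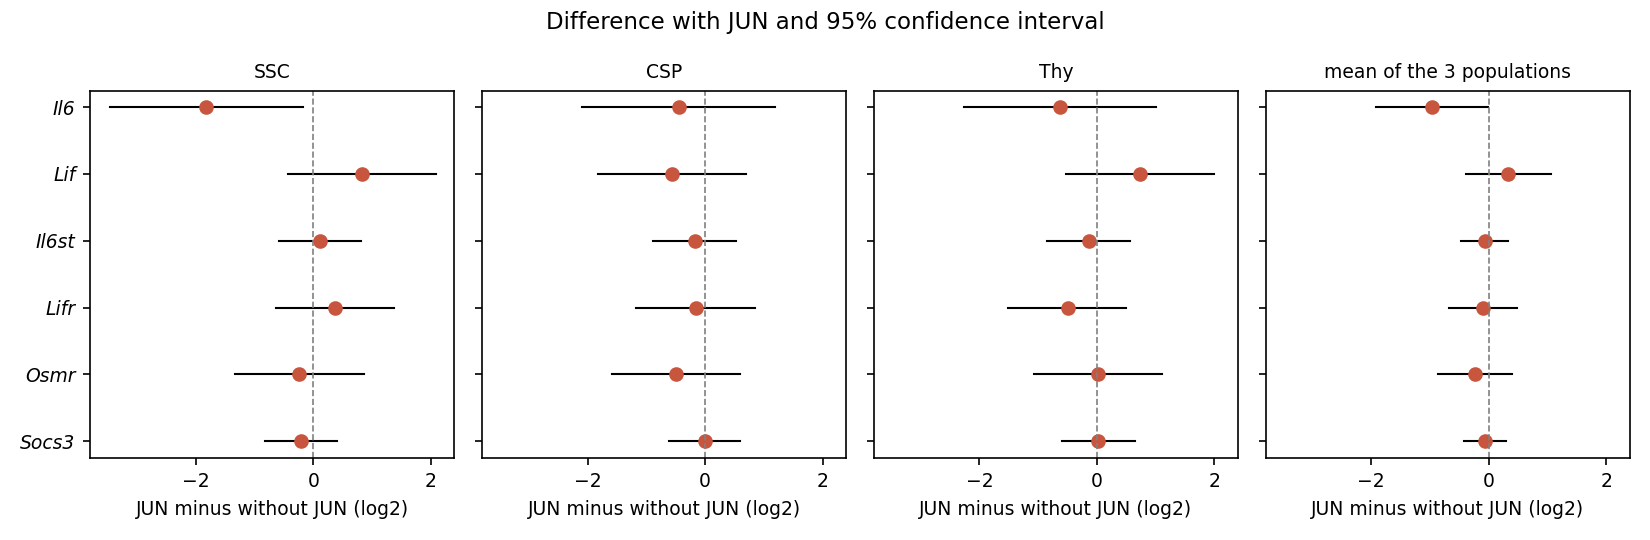
Difference with JUN minus without JUN (x axis, log2) of the 6 tested members in SSC, CSP, Thy and averaged; points are fitted differences and bars 95% confidence intervals. Il6 lies at -1.82 in SSC and -0.97 on average, and every other interval includes 0.

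The population comparison asked whether SSC, CSP and Thy differ in these genes, and again no tested member passed. Against the 0 of 6 members, 0.431% of all genes passed for SSC minus CSP (0.384% higher and 0.0479% lower in SSC), 0.391% for SSC minus Thy (0.0719% higher and 0.32% lower in SSC) and 0.991% for CSP minus Thy (0.0879% higher and 0.903% lower in CSP). With mouse as a fixed block both SSC counts were smaller, at 8 in place of 54 genes and 4 in place of 49. An unadjusted p under 0.05 was found for 1 of 6 members, Il6, in SSC minus CSP (6.51% of all genes) and in SSC minus Thy (17.7%), and for 0 of 6 in CSP minus Thy (12%). SSC and CSP did not overlap for 0 members (4.06% of all genes), SSC and Thy for 1, Il6st (7.59%), and CSP and Thy for 0 (6.11%). Tested singly, 3, 5 and 1 of the 15 probe sets had an unadjusted p under 0.05, against 7.28%, 18.3% and 11.4% of all kept probe sets, and 1, 2 and 1 did not overlap, against 4.27%, 8.27% and 5.76%. None of the 15 passed, against 0.282%, 0.531% and 0.602% of all kept probe sets. Of the 6 members, 5 were lower in SSC than in Thy by their representative probe set, Lifr being the exception, with a median of -0.25 against -0.09 over all genes.

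**Figure D5:**
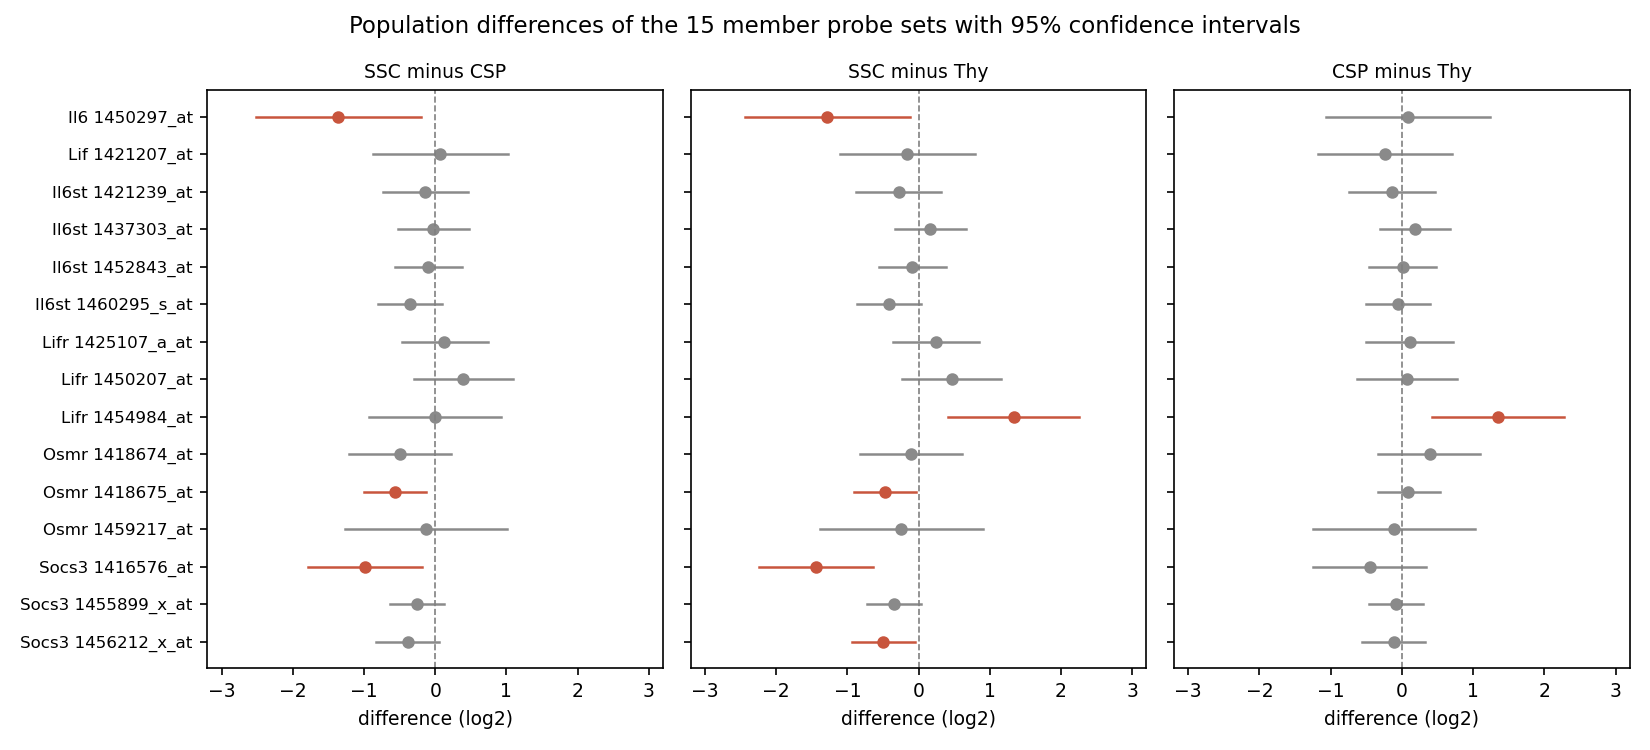
Differences between populations (x axis, log2) of the 15 member probe sets, with 95% confidence intervals; red marks an unadjusted p under 0.05. Il6 and Socs3 1416576_at lie below 0 in both SSC comparisons, and Lifr 1454984_at lies at 1.34 and 1.35 in the comparisons with Thy.

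Il6ra, which encodes the IL-6-binding receptor chain and is no member of the 7, was higher with JUN in every population. It stood at 8.47 and 7.92 in SSC without JUN against 9.68 and 8.99 with JUN, at 8.61 and 9.14 in CSP without JUN against 9.59 and 9.25 with JUN, and at 8.12 and 9.20 in Thy without JUN against 10.32 and 10.50 with JUN. The arms did not overlap in any of the 3 populations, though they did when all 12 arrays were pooled. Arms were separate for 38.4% of all genes in SSC, 31.2% in CSP and 28.6% in Thy. The difference was 1.14 ± 0.42 in SSC, 0.55 ± 0.42 in CSP and 1.75 ± 0.42 in Thy (limma unadjusted p = 0.00187, adjusted p = 0.985). Averaged, it was 1.14 ± 0.24 (limma unadjusted p = 0.000773, adjusted p = 0.396), so it did not pass over all genes. The average lay between 0.96 and 1.41 when any array or mouse was left out. The SSC difference of Il6ra was 0.79 without SSC JUN replicate 1. Leukocytes also carry Il6ra, and means of neutrophil markers were likewise higher with JUN. These markers were dim: 4 of the 7 passed the filter, and the mean of the 7 lay below the median of every array. The mean of the 7 neutrophil markers was 6.11 and 6.34 in SSC without JUN against 6.57 and 6.78 with JUN. It was 6.66 and 6.93 against 7.38 and 7.58 in CSP, and 7.08 and 7.25 against 7.42 and 7.51 in Thy. The arms of this mean were separate in each population, with 2 arrays an arm. How often means of other lists separate was not taken. For the mean of only the 4 genes that were tested, arms were separate in SSC and CSP. In Thy they overlapped, at 7.59 and 8.29 without JUN against 8.17 and 8.42 with JUN. By population, 3 of these 4 genes were higher with JUN in SSC, 4 in CSP and 2 in Thy. Their median differences were 0.3, 0.71 and 0.29 in that order. Of the 4 neutrophil genes tested all were higher with JUN on average and 0 passed, with a median of 0.58 against 0.07 over all genes; Camp, an antimicrobial peptide of neutrophil granules, differed by 0.77 ± 0.21 (limma adjusted p = 0.396). Of 5 macrophage genes tested 4 were higher, with a median of 0.38 and 0 past the threshold. The arms of the mean of all 8 macrophage and leukocyte markers were separate in CSP and Thy. They overlapped in SSC, at 6.79 and 6.9 without JUN against 7.27 and 6.79 with JUN. The part of these cells in the Il6ra difference was not tested. The direction was opposite to that of the Il6 means in all 3 populations.

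Among the other ligands of the family, 2 of 9 were tested, Ctf1 (cardiotrophin 1) and Clcf1 (cardiotrophin-like cytokine factor 1), and among the other receptors 2 of 5, Il6ra and Cntfr (ciliary neurotrophic factor receptor); none passed with JUN or between populations. Clcf1 in Thy differed with JUN by 1.49 ± 0.87, and by -0.12 without Thy without JUN replicate 1, where it stood at 6.44. Osm, the ligand of Osmr, was below the filter, at 6.78 to 7.53. Cntfr was lower in SSC than in CSP by 0.60 ± 0.27 (limma adjusted p = 0.76) and higher in CSP than in Thy by 0.78 ± 0.27 (adjusted p = 0.268).

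Of the relay genes (JAKs, STATs and adaptors) 9 of 10 and of the inhibitors of the pathway 13 of 13 were tested, and 0 passed in any comparison. With JUN in SSC the relay genes had a median difference of 0.23 and the inhibitors 0.02, against 0.08 over all genes. Pias3, an inhibitor of STAT3, was lower in SSC than in Thy by 0.99 ± 0.25 (limma adjusted p = 0.106). The difference was 1.16 without SSC JUN replicate 1, where it passed (limma adjusted p = 0.041) among 304 genes, in place of 49.

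Of 20 listed STAT3 target genes 18 were tested. With JUN in SSC, 12 were higher and 6 lower with a median of 0.33 against 0.08 over all genes, 0 passed, and the lowest p belonged to Il4ra, the IL-4 receptor, at 1.40 ± 0.33 (limma unadjusted p = 0.00149, adjusted p = 0.69); the mean of the 18 genes was 11.47 in SSC JUN replicate 1 and 10.36 to 10.63 in the other SSC arrays. Junb, an AP-1 subunit, differed by 1.2 ± 0.49 and by 0.49 without SSC JUN replicate 1. In CSP and Thy the medians with JUN were -0.04 and -0.03. Between SSC and Thy, 15 of 18 were lower in SSC with a median of -0.40 against -0.09, and 0 passed. Junb was lower by 1.36 ± 0.35 (limma adjusted p = 0.116). It was lower by 1.75 without SSC JUN replicate 1, where it passed (limma adjusted p = 0.0179) among 304 genes, in place of 49.

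Ccnd1, which encodes cyclin D1 and is a listed STAT3 target, was the only gene of the pathway lists to pass: it was lower in CSP than in Thy by 0.89 ± 0.19 (limma adjusted p = 0.0468). The call was lost with mouse as a fixed block (limma adjusted p = 0.104), with arrays centred on their medians (0.0631) and with any 1 of 11 arrays left out, SSC JUN replicate 1 being the exception. Ccnd1 was also higher in SSC than in CSP by 0.85 ± 0.19 without passing (adjusted p = 0.1).

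Of 19 inflammatory and NF-kB genes, many of them induced together with Il6, 11 were tested. Between SSC and Thy 10 of 11 were lower in SSC, with a median of -0.78 against -0.09 over all genes, and 0 passed. Ccl2, a monocyte chemoattractant, stood at 8.69 to 8.82 in SSC and at 9.52 to 10.38 in Thy, a difference of -1.10 ± 0.21 with no overlap (limma adjusted p = 0.0514). It passed without SSC JUN replicate 1 (-1.04, limma adjusted p = 0.0439) and without Thy JUN replicate 2 (-1.25, limma adjusted p = 0.0437). Over all genes 304 and 59 passed in these fits, in place of 49. Ptgs2, which encodes cyclooxygenase 2, was lower in SSC than in CSP by 1.01 ± 0.37 (adjusted p = 0.615), and the difference was -0.58 without mouse 4. With JUN their median difference was 0.04 in SSC against 0.08 over all genes, 0.07 in CSP against 0.07, and 0.06 in Thy against 0.04. Tnfaip3, an NF-kB inhibitor, averaged -0.96 ± 0.34 with JUN (adjusted p = 0.396), with -0.50 without mouse 7 and -1.42 without mouse 4.

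Of the 3 genes that link stromal cells to osteoclasts 2 were tested, and Csf1 (macrophage colony-stimulating factor) was lower in SSC than in Thy by 0.99 ± 0.26 without passing (limma adjusted p = 0.116). The 21 immediate early and stress genes, which handling can induce, were all tested. Between SSC and Thy 20 of 21 were lower in SSC, with a median of -0.32, and their mean was 12.04 to 12.31 in the 3 dated SSC arrays, 13.10 in SSC JUN replicate 1 and 12.34 to 13.15 in CSP and Thy; their part in the differences of Socs3, Il6 and the STAT3 targets was not tested. Mean values of all 8 macrophage and leukocyte markers were 6.79 to 7.52 over the arrays, below the array medians, and Ptprc was below it in every array; those of the 7 neutrophil markers were 6.11 to 6.78 in SSC and 6.66 to 7.58 in CSP and Thy. Mean values of the adipocyte and reticular markers were 9.66 in SSC JUN replicate 1, 10.88 to 11.56 in the other SSC arrays and 9.54 to 10.76 in CSP and Thy. In SSC the lowest and the highest array were the same as for Il6. Between them the order differed: SSC without JUN replicate 1 had markers at 11.18 and Il6 at 10.87, and SSC JUN replicate 2 had 10.88 and 11.05. CSP and Thy had Il6 at 11.43 to 12.80. The part of these markers in the Il6 difference was not tested.

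Markers of other stromal and vascular cells also differed between the populations. Of 7 pericyte and smooth muscle genes tested 6 were lower in SSC than in Thy, with a median of -0.91, and 2 passed (0.391% of all genes). These were Rgs5, a pericyte marker, by -3.24 ± 0.27 (limma adjusted p = 0.0003) and Notch3 by -1.72 ± 0.29 (adjusted p = 0.0379). In CSP 6 of the 7 were also lower than in Thy, with a median of -1.42, and 4 passed (0.991% of all genes). The mean of the 7 genes was 10.32 to 11.29 in SSC, 10.11 to 10.63 in CSP and 11.35 to 12.18 in Thy. Of 5 endothelial genes 4 were lower in SSC than in CSP, with a median of -1.16, and 0 passed. All 3 Schwann cell genes tested were higher in SSC than in CSP, and 2 passed (0.431% of all genes). These were Mbp, a myelin protein, by 4.47 ± 0.52 (limma adjusted p = 0.00339) and Sox10 by 2.80 ± 0.35 (adjusted p = 0.00368). In CSP minus Thy 2 of the 3 were lower in CSP and passed (0.991% of all genes), with a median of -2.88. Between SSC and Thy 0 of the 3 passed. The mean of these 3 genes was 10.53 to 11.15 in SSC, 8.22 to 8.79 in CSP and 8.93 to 11.30 in Thy. The part of these cells in the population differences of Il6, Lifr, Osmr and Socs3 was not tested.

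Correlation over the 12 arrays, which share mice and populations, is given as a description. Among members the highest was r = 0.64 between Il6st and Socs3 and the lowest r = -0.74 between Lifr and Osmr, while Il6 and Lif gave r = -0.39. The tested genes most like Il6 were Naalad2 (r = 0.913), Ddias (r = 0.898) and Ptprg (r = 0.857), each lowest in SSC JUN replicate 1. Those most like Lif were Inpp4a (r = 0.887), Tbc1d2 (r = 0.875) and Exog (r = 0.862). Il6st was most like Mcc (r = 0.942), Rnf216 (r = 0.916) and Fndc1 (r = 0.915), all lowest in SSC without JUN replicate 3. Lifr was most like Pnmal2 (r = 0.818), Arhgef18 (r = 0.807) and Tsr2 (r = 0.798), all lowest in Thy JUN replicate 2. Osmr was most like Ttc9c (r = 0.874), Nefm (r = 0.86) and Tvp23b (r = 0.859), and Socs3 was most like Smc1a (r = 0.904), Birc7 (r = 0.894) and Fgb (r = 0.893).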

How the data were processed

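The authors deposited 1 log2 expression value per probe set and array; the submitters' processing notes name RMA, which corrects background, brings arrays to a common distribution and summarises probes, in a version not given in the sources used here. Values from 3.2 to 15.99 show the scale. RMA compresses differences of dim probe sets. Of 45101 probe sets, 34945 had 1 gene symbol, 932 several and 9160 none in the platform annotation.

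Kept probe sets (26560) lay above the array median in at least 2 arrays; the brightest per gene gave 12516 genes. JUN differences came from limma 3.58.1 (R 4.3.3) with 6 group means, population differences from population plus induction, two-sided with Benjamini-Hochberg adjustment and a threshold of 0.05; p-values measure spread between arrays of 5 mouse numbers.

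Members and gene lists were chosen with earlier results of these data known. Genes outside the 7 were named by rule: per list and comparison those that passed (up to 4 of lowest p) or otherwise up to 2 of lowest p, and not all of these are printed; and the 3 genes of highest correlation with each member.

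The titles give a mouse number. Deviations of arrays with the same number correlated at r = 0.0916 for CSP and Thy without JUN, and with JUN at -0.0269 for SSC and CSP, 0.429 for SSC and Thy and -0.214 for CSP and Thy. Array number limits precision. Array image files were not analysed here.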

Additional observations from a re-analysis of the deposited data

Results flagged for a closer look

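Among 45 sets of 4 arrays (15 member probe sets in 3 populations), 2 held an array far from the other 3 by Dixon's test, where chance flags about 1 in 20 sets. Lifr probe set 1450207_at stood at 8.9 in Thy JUN replicate 2, against 9.91 to 10.00 in the other Thy arrays. Il6 stood at 11.54 in CSP JUN replicate 2, against 12.30 to 12.41 in the other CSP arrays. Both arrays came from mouse 7.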

How the results depend on the processing

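No member passed at a limma adjusted p under 0.05 in the gene-level tests under any alternative; the count stayed 0 of 6 in all 7 comparisons and in the test of JUN by population. The values below reversed sign; the causes were not tested. With the poly-A controls as a covariate, Il6 was -0.48 in CSP minus Thy and 0.5 with JUN in CSP, Il6st 0.06 on average with JUN, Lif 0.1 in SSC minus Thy, and Lifr -0.34 with JUN in SSC. Lifr probe set 1454984_at was then 0.1 on average with JUN, 0.14 with JUN in SSC and -0.29 in SSC minus Thy, and Osmr was 0.34 on average, 0.15 in CSP and 0.74 in SSC with JUN. In the 6 arrays without JUN, CSP minus Thy was -0.01 for Il6, 0.42 for Lif and -0.1 for Lifr, SSC minus CSP was -0.62 for Lif, and SSC minus Thy was 0.02 for Osmr. With the mean of a gene's kept probe sets, Il6st was 0 in CSP minus Thy, Lifr -0.73 with JUN in SSC, Osmr -0.41 with JUN in Thy, and Socs3 0.12 on average and 0.32 in SSC with JUN. The title date as a covariate, chosen after seeing the data, gave 0.81 for Lif in SSC minus Thy and 0.18 for Socs3 probe set 1416576_at in SSC minus CSP. With CSP and Thy averaged per mouse, also chosen after seeing the data, Socs3 averaged 0.01 with JUN.

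With 1 array or mouse left out, differences with JUN ranged as follows. In SSC, Il6st ranged from -0.12 to 0.35. In CSP, Il6st ranged from -0.43 to 0.06, Lif from -1.44 to 0.32, Lifr from -0.81 to 0.48, Osmr from -1.19 to 0.2 and Socs3 from -0.09 to 0.06. In Thy, Il6st ranged from -0.37 to 0.08, Lifr from -1.05 to 0.04, Osmr from -0.57 to 0.61, Socs3 from -0.16 to 0.21 and Clcf1 from -0.12 to 3.11. On average, Il6st ranged from -0.15 to 0.01, Lif from -0.28 to 0.94, Lifr from -0.31 to 0.11 and Socs3 from -0.16 to 0.03. SSC minus CSP ranged from -0.42 to 0.27 for Lif, and SSC minus Thy from -0.48 to 0.04 for Lif and from -0.28 to 0.16 for Osmr. CSP minus Thy ranged from -0.18 to 0.29 for Il6, -0.22 to 0.09 for Il6st, -0.45 to 0.26 for Lif, -0.38 to 0.41 for Lifr and -0.13 to 0.01 for Socs3. A lone array left in an arm is assumed to vary like the other groups.

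With the replicate number as a block, Il6st with JUN in SSC was -0.11 and the count of members passed stayed 0; with mouse as a fixed block, Lif in SSC minus Thy was 0.07. Over all genes, leaving out mouse 7 gave 495 calls with JUN on average, 282 in SSC and 175 in Thy, and leaving out mouse 4 gave 2 in CSP, against 0 with all arrays. For SSC minus CSP the 54 calls were 7 to 35 in the fits without 1 array or mouse that moved them by over 1.5 times, 23 with the title date, 1 in arrays without JUN and 5 in arrays with JUN. For SSC minus Thy the 49 calls were 304 without SSC JUN replicate 1, 3 without mouse 3, 24 with no filter, 75 with probe sets averaged, 141 with probe sets tested singly, 0 with the poly-A covariate, 10 with the title date, 8 with 6 group means, 19 in arrays without JUN and 0 in arrays with JUN. For CSP minus Thy the 124 calls were 17 without mouse 3, 46 with the poly-A covariate, 50 in arrays without JUN and 0 in arrays with JUN. Crossing the Thy JUN numbers gave 95 calls for CSP minus Thy in place of 125. Few arrays, and the dim probe sets of Lif, Il11 and Osmr (1459217_at), limit what these comparisons resolve.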
